A study of Mus musculus with 8 samples.

Results

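Arntl (which encodes BMAL1), Clock and Npas2 encode the activating transcription factors of the circadian clock, and their transcripts were followed over the day in crypts of the mouse colon. The genes were taken by symbol from the deposited table, where they are 3 of 14247 genes. All 3 passed the filter on low values, as did 13503 genes in all, and all 8 libraries gave a value for each of them.

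Bulk RNA sequencing was carried out on colonic epithelial crypts of WT mice at zeitgeber time (ZT) 0, 6, 12 and 18 h, counted from lights on in a 12 h light and 12 h dark cycle. Each time point had 2 libraries, called replicate 1 and replicate 2 after their labels, and the labels give the genotype WT for all 8 and name no treatment. The mice had a C57BL/6 background and an age of 2 to 4 months. Crypts were released from the large intestine with EDTA and scraping, so a library holds whole crypts and any cells that came off with them. The paper counts this time course in mice, with more per group than the 2 libraries here, and does not say which mouse gave which library. The labels do not say whether the libraries of a time point came from different mice. The p-values therefore measure the spread between these libraries, which may be technical.

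BMAL1, the product of Arntl, pairs with CLOCK or with its close relative NPAS2, and the dimer binds E-boxes and switches on genes that include those of the Period, Cryptochrome and REV-ERB repressors. PER and CRY proteins then hold the dimer back, while REV-ERB repressors and ROR activators compete for response elements in the Arntl gene. BMAL1 is the partner that both dimers need, and the clock stops in mice without it, whereas CLOCK and NPAS2 can stand in for each other in part.

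The sequences at the start of the 3 genes are shown first, since they are where a regulator of daily transcription could act. In GRCm38, Arntl (ENSMUSG00000055116) lies on the plus strand at chr7:113207465-113314126, Clock (ENSMUSG00000029238) on the minus strand at chr5:76209868-76304792, and Npas2 (ENSMUSG00000026077) on the plus strand at chr1:39193731-39363236. Windows of 300 bases, from 250 before to 50 after each RefSeq start site (build GRCm38.p6), were searched on both strands, and the 3 genes had 2, 3 and 1 windows. The half-sites TAGGTCA and TAGGTTA, which ROR and REV-ERB factors can bind, occurred in 2.61% and 1.44% of the 32851 windows. Only 4 windows held both on the strand of the gene, that of Arntl among them. In Arntl each half-site closes a longer element, AAAGTAGGTTA and AAAGTAGGTCA, and these letters, read from the Arntl window, occurred in 9 (0.0274%) and 7 windows (0.0213%), with both in that of Arntl alone. These 30-base stretches of Arntl, with the longer element in capitals, lie at chr7:113207492-113207521 and chr7:113207528-113207557.
Arntl site 1: attggtcggAAAGTAGGTTAgtggtgcgac
Arntl site 2: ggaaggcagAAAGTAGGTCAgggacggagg
The elements start 36 bases apart, and both fall in exon 1 of the transcript Arntl-201, in its 5′ untranslated region. No window of Clock or Npas2 held either half-site, but the shorter AGGTCA, found in 16.3% of all windows, was in 1 window each of Arntl and Clock. The stretches upstream are shown for comparison, 5′ to 3′ on the strand of each gene, at chr7:113207215-113207464 for Arntl, chr5:76304793-76304875 for Clock and chr1:39194022-39194211 for Npas2. The Npas2 stretch also lies in an intron of a transcript that starts further upstream. Capitals mark GGTCA, the core of the same element, which overlaps the half-site TAGGTCA and is common, with 40.5% of all windows holding it, among them both windows of Arntl, 1 of Clock and that of Npas2. The Clock stretch below is shorter than its window and holds none.
Arntl upstream: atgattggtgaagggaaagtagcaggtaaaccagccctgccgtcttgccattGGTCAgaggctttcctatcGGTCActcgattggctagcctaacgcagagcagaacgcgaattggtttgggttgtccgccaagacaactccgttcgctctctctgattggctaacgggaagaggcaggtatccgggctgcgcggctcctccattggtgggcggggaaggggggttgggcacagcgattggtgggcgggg
Clock upstream: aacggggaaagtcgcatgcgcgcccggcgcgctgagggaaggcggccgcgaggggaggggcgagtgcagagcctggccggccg
Npas2 upstream: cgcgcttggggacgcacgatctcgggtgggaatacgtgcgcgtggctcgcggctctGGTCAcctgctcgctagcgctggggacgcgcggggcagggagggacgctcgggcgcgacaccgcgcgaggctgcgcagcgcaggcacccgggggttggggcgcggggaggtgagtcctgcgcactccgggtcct
The E-box CACGTG, found in 7.15% of windows, and the D-box TTATGTAA, found in 0.938%, were in no window of the 3 genes. These matches describe letters in short windows, and binding was not measured here.

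Total reads over the 14247 genes ranged from 14722342 to 25159440 per library, and the mitochondrial genome took 6.68% to 22.2% of them. This share was lowest in both ZT12 libraries, at 6.68% and 7.85%. The epithelial markers had a summed level of 238026 to 316736 normalised counts (reads divided by a size factor of the library) and were present in every library. ZT12 replicate 1 and ZT0 replicate 2 stood apart most by markers of other cells. Smooth muscle markers summed to 3672 and fibroblast markers to 2480 normalised counts in ZT12 replicate 1, against library medians of 23.9 and 60.9. ZT12 replicate 2 came next for smooth muscle markers, at 229, and had a fibroblast sum of 150. In ZT0 replicate 2, B and plasma cell markers summed to 1684, against a median of 51.6, and fibroblast markers to 673. Myeloid, T cell and endothelial markers summed to 726 to 2567, 14.9 to 213 and 51.5 to 450.4. The highest myeloid and T cell sums were also in ZT0 replicate 2, and the highest endothelial sum was in ZT12 replicate 1. Results for the 3 genes are therefore given with and without ZT12 replicate 1 and ZT0 replicate 2. Leaving these out keeps ZT12 replicate 2, so it does not remove smooth muscle markers from ZT12. In bulk tissue, fewer cells of a type and less RNA per cell cannot be told apart.

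Arntl, the partner needed by both dimers, was highest at lights on and lowest at lights off. At ZT0 it had 1597 and 1038 normalised counts in replicates 1 and 2, whereas ZT6 gave 679 and 557, ZT12 gave 301 and 436, and ZT18 gave 649 and 799. Both ZT0 libraries stood above the other 6 and both ZT12 libraries below the other 6, while ZT6 and ZT18 overlapped. The means were 1318 ± 395, 618 ± 86.2, 368 ± 95.6 and 724 ± 107 (SD, n = 2 each), so the ZT0 mean was 3.58-fold that of ZT12. Between these extremes Arntl was 1.68-fold higher at ZT6 than at ZT12 and 1.97-fold higher at ZT18 than at ZT12. Behind these values stood 321 to 1608 reads, and the 95% Poisson intervals, which cover counting error only, ran from 269 to 335 for the lowest library and from 1520 to 1677 for the highest.

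Npas2, whose product takes the place of CLOCK in the dimer, was likewise highest at lights on and lowest at lights off. Its normalised counts at ZT0 were 998 and 783, while ZT6 gave 625 and 585, ZT12 gave 204 and 409, and ZT18 gave 464 and 685. Again both ZT0 libraries were the highest of the 8 and both ZT12 libraries the lowest, and the ZT18 libraries lay on either side of those of ZT6. The means were 890 ± 152, 605 ± 27.8, 307 ± 145 and 575 ± 156 (SD, n = 2 each), and the ZT0 mean was 2.90-fold the ZT12 mean. The ZT12 libraries differed 2.01-fold from each other, the widest gap between replicates of any of the 3 genes, and their counting intervals of 178 to 233 and 368 to 454 did not meet. The lower of them, replicate 1, is the library rich in smooth muscle and fibroblast markers, whose part in this value was not tested.

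Clock, the usual partner of BMAL1, had nearly the same mean at each time point. It had 2315 and 1401 normalised counts at ZT0, against 1798 and 1763 for ZT6, 1667 and 1785 for ZT12, and 1666 and 1700 for ZT18. The 6 libraries from ZT6 to ZT18 lay close together, whereas ZT0 replicate 1 was the highest and ZT0 replicate 2 the lowest of all 8. The means were 1858 ± 647, 1780.5 ± 24.1, 1726 ± 83.5 and 1683 ± 24.1 (SD, n = 2 each), so the highest mean was 1.104-fold the lowest. The ZT0 replicates differed 1.65-fold and the replicates of the other time points 1.02-fold to 1.07-fold, with 1459 to 2331 reads behind each value. The lowest, ZT0 replicate 2, is the library rich in B and plasma cell markers, with the highest myeloid and T cell sums too. Over all libraries the highest value was 1.65-fold the lowest for Clock, against 5.31-fold for Arntl and 4.89-fold for Npas2.

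**Figure D1:**
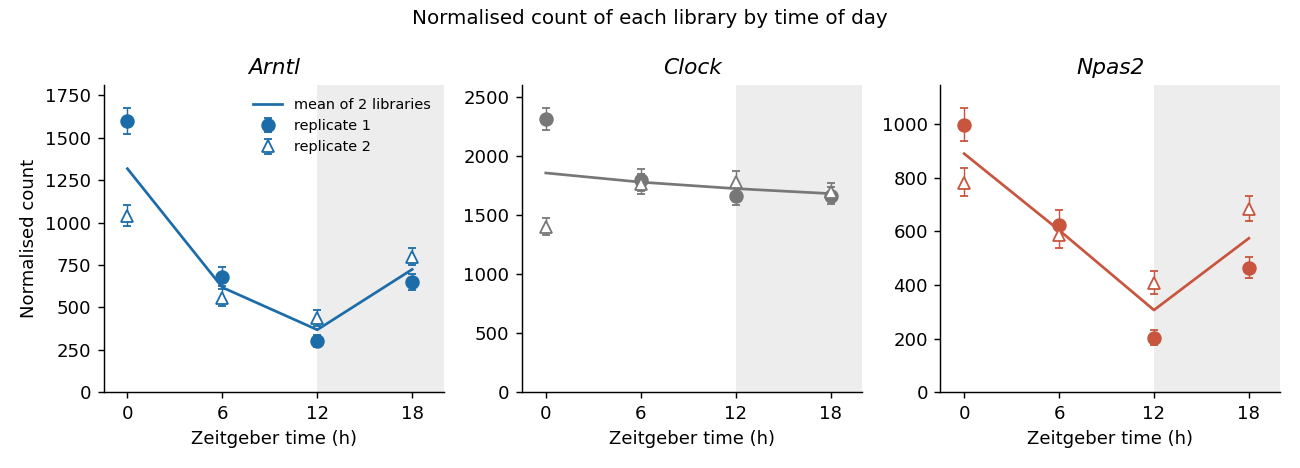
Normalised count (y axis, from 0, a different scale for each gene) of Arntl, Clock and Npas2 against zeitgeber time in h (x axis), with a filled circle for replicate 1, an open triangle for replicate 2, 95% Poisson intervals of the counting error as bars, the mean of 2 libraries as a line and the dark phase in grey. Arntl and Npas2 start high at ZT0 and are lowest at ZT12, while the Clock libraries lie between 1666 and 1798 from ZT6 to ZT18 and spread from 1401 to 2315 at ZT0.

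The pattern shared by Arntl and Npas2, with both ZT0 libraries highest and both ZT12 libraries lowest of the 8, was found in 80 of 13503 genes (0.592%). Both ZT0 libraries stood above the others in 3.63% of genes, and both ZT12 libraries below the others in 5.70%. Libraries of single pairs of time points were often apart: they did not overlap in 41.1% of all genes between ZT12 and ZT0, in 37.6% between ZT6 and ZT0 and in 27.5% between ZT18 and ZT0. The share was 45.7% between ZT12 and ZT6, 38.0% between ZT18 and ZT6 and 36.4% between ZT18 and ZT12. Arntl and Npas2 each had libraries that did not overlap in 5 of the 6 comparisons, all but ZT18 against ZT6, and Clock had them in 1, ZT18 against ZT6, where the ZT18 libraries were lower.

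Whether the transcripts follow a 24 h rhythm was tested in limma with a cosine fitted to the log2 values of all 8 libraries, whose amplitude is the distance from mean to peak. Arntl had an amplitude of 0.92 (SE 0.13) on the log2 scale with a fitted peak at 23.5 h (SE 0.53). It ranked 17 among 13503 genes and had an adjusted p of 0.0831 in limma (0.000105 unadjusted), where 16 genes (0.118%) passed. Npas2 had an amplitude of 0.81 (SE 0.16), a fitted peak at 0.238 h (SE 0.772) and rank 87, with an adjusted p of 0.304 in limma (0.00197 unadjusted). Clock had an amplitude of 0.05 (SE 0.11), below that of all but 4.45% of genes, with an adjusted p of 0.963 in limma (0.893 unadjusted), and its peak time was undefined. The amplitudes of Arntl and Npas2 were at the 93.9 and 92.2 percentiles of all genes. Peak times rest on 4 sampled times 6 h apart. An F-test for a time effect of any shape gave adjusted p-values of 0.252 for Arntl, 0.540 for Npas2 and 0.991 for Clock in limma, where 12 genes (0.0889%) passed.

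The outcome of the test turned on the tool. DESeq2, run on the recovered reads, passed Arntl with an adjusted p of 7.57e-07 (amplitude 0.93) and Npas2 with an adjusted p of 0.0129 (amplitude 0.77), among 189 genes called (1.40%). For a time effect of any shape, Arntl and Npas2 had adjusted p-values of 1.56e-05 and 0.0332 in DESeq2, among 217 genes (1.61%). Clock had an adjusted p of 0.972 for rhythm in DESeq2. The quasi-likelihood test of edgeR on the same reads called 12 genes (0.0889%) and none of the 3, with an adjusted p of 0.112 for Arntl and 0.398 for Npas2, and 10 genes (0.0741%), none of the 3, for a time effect. For a single gene, an exact permutation of the libraries over time points gave p = 0.00635 for Arntl, 0.00952 for Npas2 and 0.902 for Clock, where the smallest p it can give is 0.00317, and 1152 of 13503 genes had an exact p under 0.05 and 0 after adjustment. An exact rank test in the manner of JTK put Arntl and Npas2 at the smallest p it can give, 0.0190, which no adjustment over all genes could pass here, and Clock at p = 1.

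Without both ZT0 replicate 2 and ZT12 replicate 1, the libraries richest in markers of other cells, the amplitude was 0.94 for Arntl, 0.64 for Npas2 and 0.19 for Clock. The adjusted p in limma was then 0.478, 0.940 and 0.955. The part of the other cells in the values of the 3 genes was not tested beyond this.

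Between ZT12 and ZT0, the time points that open the dark and the light phase, the log2 difference was -1.83 (SE 0.27, 95% interval -2.44 to -1.22) for Arntl and -1.61 (SE 0.33, -2.36 to -0.86) for Npas2, in limma with n = 2 against 2. For Clock it was -0.06 (SE 0.23), and the interval of -0.57 to 0.45 leaves room for a change of either sign. Adjusted over all genes in limma, p was 0.0717, 0.258 and 0.938 for Arntl, Npas2 and Clock, with unadjusted values of 7.96e-05 and 0.00086 for the former pair. In limma 9 genes passed as higher at ZT12 (0.0667%) and 0 as lower, while 9.96% of genes, both directions together, had an unadjusted p under 0.05, and edgeR passed 0 as lower. In DESeq2, Arntl fell by 1.84 (adjusted p = 1.36e-06) and Npas2 fell by 1.54 (adjusted p = 0.00333), among 62 genes called lower (0.459%). Leaving out the libraries rich in other markers, the differences in limma were -1.87, -1.28 and -0.38 for Arntl, Npas2 and Clock.

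The remaining contrasts share libraries with these, and for Arntl and Npas2 they gave smaller differences. From ZT0 to ZT6 the log2 difference was -1.07 for Arntl and -0.55 for Npas2, and from ZT6 to ZT12 it was -0.76 and -1.06, all with adjusted p-values of 0.705 or more in limma. The split of the Npas2 difference between these steps rested on ZT12 replicate 1, rich in smooth muscle and fibroblast markers. Without it the step from ZT6 to ZT12 was -0.50 for Arntl, the Npas2 steps were -0.55 and -0.56, and without both libraries rich in other markers the Npas2 steps were -0.72 and -0.56. From ZT12 to ZT18 both were higher again, by 0.99 for Arntl and 0.96 for Npas2 (adjusted p = 0.514 and 0.520, limma). The Npas2 value moved to 0.46 when ZT12 replicate 1 was left out and to 1.46 when replicate 2 was. Clock stayed between -0.10 and -0.02 in all 6 contrasts.

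**Figure D2:**
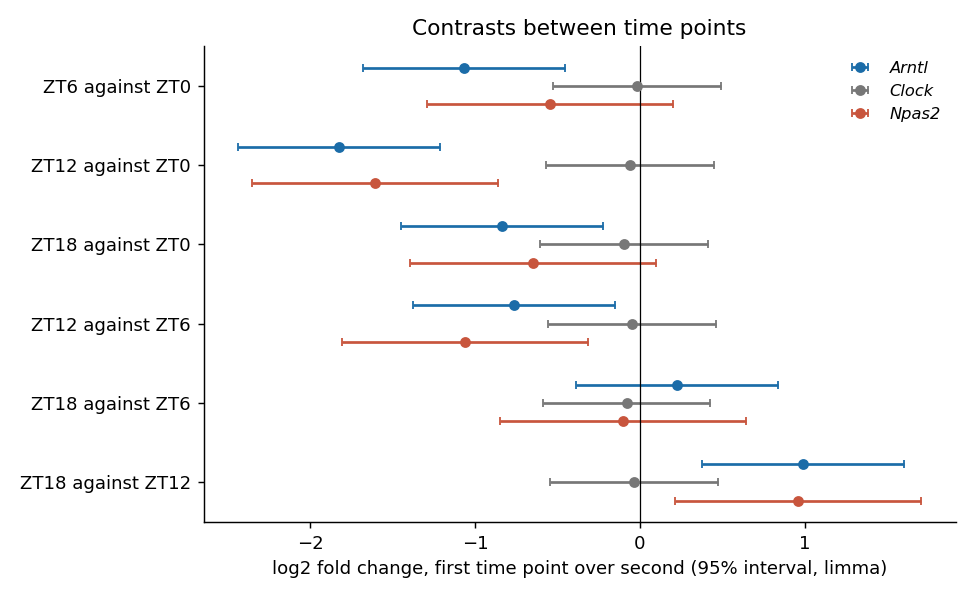
Log2 fold change (x axis, the time point named first over the one named after it) for the 6 contrasts between time points (y axis), with points for the limma estimate of Arntl, Clock and Npas2 and bars for its 95% interval, unadjusted. All 6 Clock intervals include 0, and the Arntl and Npas2 intervals lie farthest to the left for ZT12 against ZT0, at -1.83 and -1.61.

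To test whether the partners differ, and not only whether each passes, the log2 ratio of 2 genes was taken within each library, where the scaling of the library cancels. The 3 ratios were fitted with the same cosine and tested by exact permutation over the 2520 ways to assign the libraries to time points, with p-values adjusted over the 3. The contrast of a rhythmic and a flat partner was drawn up with the profiles of these genes known, so the tests describe its size and are not independent of that choice.

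The ratio of Arntl to Clock followed the day closely, with an R2 of the cosine of 0.950, against 0.889 for Arntl alone and 0.0374 for Clock alone. As deviations from its mean on the log2 scale it was 0.84 and 0.94 in the ZT0 libraries, -0.03 and -0.29 in those of ZT6, -1.10 and -0.66 in those of ZT12, and 0.01 and 0.28 in those of ZT18. The ZT0 replicates, which differed 1.54-fold for Arntl and 1.65-fold for Clock, came together in the ratio. Its amplitude was 0.90 (SE 0.09), and the exact permutation p was 0.00317, the smallest possible, or 0.00952 adjusted. It passed without each library in turn, with an adjusted exact p of 0.00952 to 0.0190.

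On the same scale the ratio of Npas2 to Clock was 0.47 and 0.84 in the ZT0 libraries, 0.16 and 0.09 in those of ZT6, -1.34 and -0.44 in those of ZT12, and -0.16 and 0.37 in those of ZT18. All ZT0 values were above and all ZT12 values below the others, with a wide gap between the ZT12 libraries. Its amplitude was 0.77 (SE 0.19), with an exact permutation p of 0.00952, or 0.0143 adjusted. This difference from Clock was lost in 4 of 8 cases when 1 library was left out. The adjusted exact p was 0.0810 without ZT0 replicate 2, 0.0619 without ZT6 replicate 2, 0.0571 without ZT12 replicate 1 and 0.0524 without ZT18 replicate 1.

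The ratio of Arntl to Npas2 showed no such course, with 0.37 and 0.10 in the ZT0 libraries, -0.19 and -0.38 in those of ZT6, 0.25 and -0.22 in those of ZT12, and 0.17 and -0.09 in those of ZT18. Its amplitude was 0.20 (SE 0.13), and the exact permutation p was 0.375, before and after adjustment. Its ZT12 and ZT0 means differed by -0.22, against a spread of 0.222 (SD within time points). A p of this size does not show that the genes move alike, and both ZT6 libraries lay below the mean of this ratio.

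**Figure D3:**
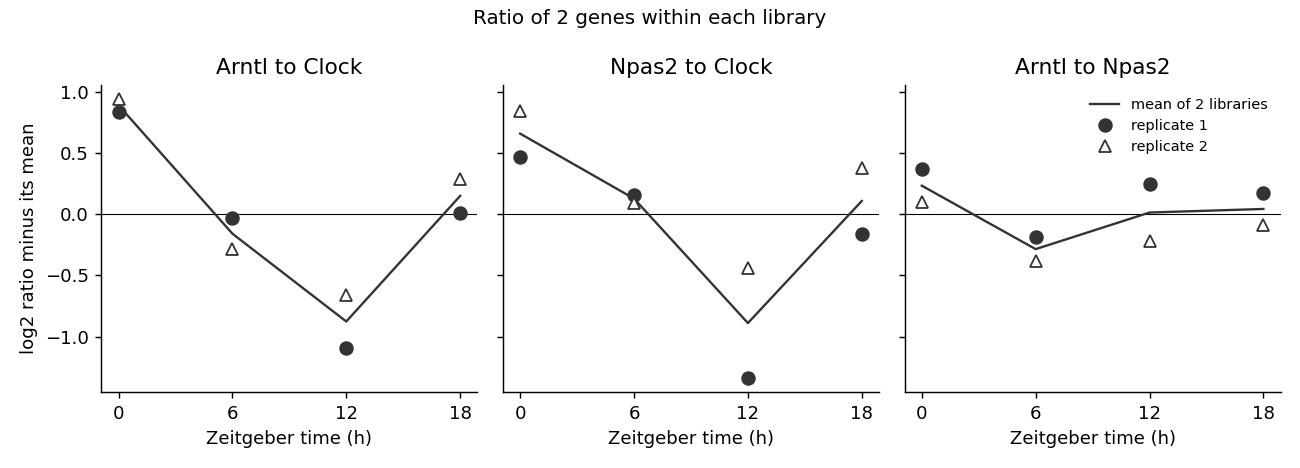
Log2 ratio of 2 genes within each library minus its mean over the 8 libraries (y axis, the same scale in each panel) against zeitgeber time in h (x axis), with a filled circle for replicate 1, an open triangle for replicate 2 and the mean of 2 libraries as a line. The ratios to Clock run from above 0 at ZT0 to means of -0.88 (Arntl) and -0.89 (Npas2) at ZT12, while the ratio of Arntl to Npas2 stays between -0.38 and 0.37.

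Read counts depend on transcript length, so levels were compared between the genes only per kb. Over the union of all annotated exons, of 7523 bp for Arntl, 13727 bp for Clock and 4791 bp for Npas2, the mean over 8 libraries was 101, 128 and 124 normalised counts per kb. Over the exons of coding transcripts only, of 3090, 9925 and 4515 bp, it was 245, 178 and 132 per kb. Arntl was thus lowest by the former length and highest by the latter, a choice added after the data were seen, and the levels give no firm order. Arntl shares 33 bp of exon with the antisense gene Gm45355, 0.439% of its exon length, and the pseudogenes and other models that overlap Clock and Npas2 share none.

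Like profiles were sought among 11087 genes with a mean of at least 50 normalised counts, by the root mean square (RMS) difference of their centred log2 values over the same 8 libraries. The gene nearest to Arntl was Npas2, at 0.243, and Arntl was the gene next nearest to Npas2 after Hist1h1e, a linker histone gene at 0.232. Arntl and Npas2 themselves had an RMS of 0.691 and 0.653 around their means. The others near Arntl were St5, Ska2, Sgo1 and Gm49172, at 0.283 to 0.305, of which Ska2 acts at the kinetochore and Sgo1 guards cohesion at centromeres. Near Npas2 were also Ier5, an early response gene, St5 and BC051226, at 0.250 to 0.274. St5 was thus on both lists, with an amplitude of 0.56 and a fitted peak at 23.8 h.

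Mirror images of Arntl were 0610005C13Rik at 0.255, Gda, the guanine deaminase, at 0.272 and Cipc, whose product binds and inhibits CLOCK, at 0.273. Those of Npas2 were Syt7, a calcium sensor of vesicle fusion, at 0.272, Cipc at 0.312 and Slc9a3, the sodium and proton exchanger of the apical membrane, at 0.327. Of these 5, 0610005C13Rik and Cipc passed the rhythm test (adjusted p = 0.0320 for each in limma). Clock was at 0.650 from Arntl, rank 2610 by nearness, and at 0.625 from Npas2, rank 3011, distances close to the RMS that Arntl and Npas2 have around their own means. With an RMS of 0.187 of its own, mostly the gap between its ZT0 libraries, the genes nearest to it were Tor4a at 0.0487 and Rdh14, Stxbp6, C330018D20Rik and Cbwd1 at 0.0743 to 0.0838, and its mirror images were Nfib, Syngr2 and Irak1.

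The REV-ERB repressors, which act on the Arntl gene, peaked at another time of day, and both passed the rhythm test, against 0.118% of all genes. Nr1d1 and Nr1d2, which encode REV-ERBα and REV-ERBβ, had amplitudes of 2.17 and 1.63 and fitted peaks at 8.80 and 10.9 h (adjusted p = 0.00238 for each in limma). Nr1d1 stood at 209 and 169 normalised counts at ZT0 and ZT18 and at 1591 and 1496 at ZT6 and ZT12, the time points with the lowest Arntl means. Rora, which encodes an activator that competes with them, was scarce, with a mean of 13.2, and had an adjusted p of 0.956 in limma.

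The repressors that act on the dimers were tested for 8 of 9 genes, and 5 passed the rhythm test, against 0.118% of all genes. Per3 and Ciart had amplitudes of 1.57 and 2.36 with fitted peaks at 12.1 and 11.1 h, near the trough of Arntl and Npas2. Per2 followed at 15.6 h with an amplitude of 1.42, and Cry1 at 19.7 h with 1.14. Cipc, the CLOCK inhibitor, had an amplitude of 0.69 with a peak at 12.03 h. Per1 at 13.1 h, Cry2 at 15.1 h and Bhlhe40 at 13.6 h did not pass, with adjusted p-values of 0.142, 0.271 and 0.481 in limma. The median log2 difference of ZT12 from ZT0 was 1.52 over these repressors and 0.01 over all genes. It was -1.83 for Arntl, -1.61 for Npas2 and -0.06 for Clock. Of the repressors 4, namely Per1, Per3, Ciart and Cipc, were called higher at ZT12 than at ZT0 in limma, against 9 of all genes (0.0667%). Per1 was thus called in this contrast though not for rhythm.

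Of the PAR bZIP factors, output regulators of the clock, and Nfil3, 3 of 4 were tested and 2 passed, against 0.118% of all genes. Dbp, which the dimers drive through E-boxes, had an amplitude of 3.07 with a peak at 10.6 h (adjusted p = 4.01e-05 in limma) and Tef one of 1.78 at 12.2 h (adjusted p = 0.00438). Nfil3, which binds the same sites as a repressor, had means of 168, 69.3, 22.2 and 186 at ZT0, ZT6, ZT12 and ZT18, and so was low at ZT12 as Arntl and Npas2 were. Its fitted peak was at 22.3 h with an amplitude of 1.60, and it did not pass in limma (adjusted p = 0.216).

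**Figure D4:**
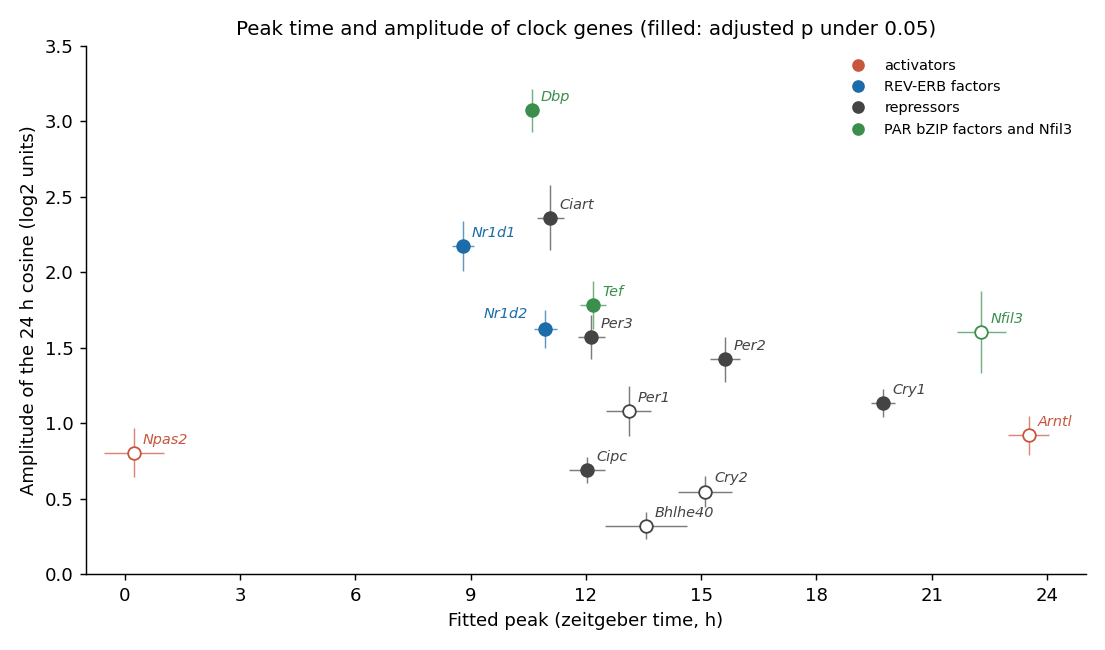
Amplitude of the fitted 24 h cosine in log2 units (y axis) against the fitted peak in h of zeitgeber time (x axis) for the activators, the REV-ERB factors, the repressors and the PAR bZIP factors with Nfil3, coloured by role, with bars of 1 SE and filled points for an adjusted p under 0.05 in limma. Arntl at 23.5 h and Npas2 at 0.238 h lie at the ends of the axis, which meet on the clock face, and 7 of the 8 repressors lie between 11.1 and 15.6 h. Clock and Rora are left out because their peaks, with SEs of 7.96 and 7.11 h, are undefined.

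Relatives of the 3 genes in the bHLH-PAS family gave no call. Of 16 listed, 11 were tested and 0 passed the rhythm test in limma, against 0.118% of all genes. An unadjusted p under 0.05 was found for 1 of them, Ncoa1, against 9.15% of all genes. The median amplitude of the 11 relatives was 0.228, the same as the median of all genes. Arntl2, the closest relative of Arntl, was scarce, with a mean of 26.9 normalised counts or 4.73 per kb of exon, and had an amplitude of 0.02 (adjusted p = 0.999 in limma). Partners of other bHLH-PAS dimers were more abundant, with 89.9 per kb for Arnt, 433 for Epas1 and 533 for Hif1a, the hypoxia factors that pair with it.

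Genes whose products modify or assist the BMAL1 and CLOCK proteins, among them kinases, acetyltransferases, deacetylases and ubiquitin ligases, were tested for 21 of 22 listed. None passed in limma, against 0.118% of all genes. An unadjusted p under 0.05 was found for 2, Ep300 and Wdr5, against 9.15% of all genes. The median amplitude of the 21 genes was 0.172, against 0.228 for all genes, which were not matched to them by level. Their median log2 difference of ZT12 from ZT0 was 0.23.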

How the data were processed

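RNA of colonic crypts was sequenced in 8 libraries, 2 per time point. According to the methods and the processing notes of the submitters, the authors aligned reads with STAR to GRCm38 (mm10) and used DESeq2; the annotation, the counting per gene and the use of strand are not given in the sources used here. The authors deposited a signal per gene and library, a read count divided by 1 size factor per library, called the normalised count. Further deposited columns of the authors, a log2 fold change, a score and p-values of their own comparison, were not used. Whole reads were recovered from the steps of the values, and 100% were whole within 0.01.

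In R 4.3.3, limma 3.58.1 (eBayes with a mean-variance trend) was run on log2(normalised count + 1) for the 13503 genes with a mean of at least 10. On this scale the folds of scarce genes come out too small. All 8 libraries entered, with a cosine and sine of 24 h, or a mean per time point with 6 contrasts. Benjamini-Hochberg adjustment ran over all genes tested, and a gene was called below 0.05. edgeR 4.0.16 (quasi-likelihood) and DESeq2 1.42.0 (likelihood ratio for rhythm) were run on the recovered reads. Ratios and single genes were tested by exact, two-sided permutation over 2520 assignments. The code was tested on simulated data. Exon lengths and positions came from GENCODE M21 and promoter windows from RefSeq.

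Genes named were the 3 activators, the lists by role, and for each activator the 5 nearest and 3 mirror profiles. The genes and lists were chosen with earlier results of these data known, and some results for the lists are not reported here. Alternatives were other scalings, filters, pseudocounts and tools, a replicate block and leaving out libraries. Groups of 2 libraries are too small for a test of outlying samples.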

Additional observations from a re-analysis of the deposited data

How the results depend on the processing

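Each time point had 2 libraries, and 218 to 2331 reads stood behind each value of the 3 genes. The sign held for Arntl in every contrast and alternative. In DESeq2, Arntl and Npas2 passed for rhythm (amplitudes 0.93 and 0.77), time point (widest differences 1.84 and 1.54) and ZT12 against ZT0 (-1.84 and -1.54); they passed in limma or edgeR under no setting, and the cause was not tested. Clock changed sign without ZT0 replicate 1 (0.35, 0.30 and 0.26 for ZT6, ZT12 and ZT18 against ZT0), without ZT12 replicate 1 or without both libraries rich in other markers (0.0035 for ZT12 against ZT6), and without ZT12 replicate 2 (0.014 for ZT18 against ZT12). Without 1 library its contrasts against ZT0 ranged from -0.38 to 0.35 at ZT6, -0.42 to 0.30 at ZT12 and -0.46 to 0.26 at ZT18, ZT12 against ZT6 from -0.095 to 0.0035 and ZT18 against ZT12 from -0.085 to 0.014. Npas2 changed sign for ZT18 against ZT6 without ZT18 replicate 1 (-0.38 to 0.18). Without ZT12 replicate 1, its differences moved from -1.06 to -0.56 for ZT12 against ZT6 and from 0.96 to 0.46 for ZT18 against ZT12. Without 1 library the amplitude ranged from 0.79 to 1.04 for Arntl, 0.04 to 0.18 for Clock and 0.57 to 0.96 for Npas2. For ZT12 against ZT0 the range was -2.14 to -1.52, -0.42 to 0.30 and -2.11 to -1.11. The ratio of Npas2 to Clock ranged from 0.55 to 0.91, and by the variance share of time points it did not pass (amplitude 0.77, adjusted exact p = 0.0571). Of the activators and the 3 lists of clock genes, 10 passed for rhythm, 1 without the mean-variance trend, 5 without both libraries, 15 in DESeq2 and 6 to 10 without 1 library, with 6 without ZT12 replicate 2. Over all genes, 16 passed, 1 without the trend, 189 in DESeq2, 10 without both libraries and 6 to 18 without 1 library. Where a time point kept 1 library, it was assumed to vary like the others. With coding transcripts only, levels per kb were 245 for Arntl and 178 for Clock. Replicate numbers did not pair the libraries, with correlations of deviations from -0.293 to 0.217, and a replicate block left the amplitude of Arntl at 0.92 (adjusted p = 0.155 in limma) and changed no call of the 3 genes.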
